A study of Danio rerio with 6 samples.

Results

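The genes described here load peptides onto major histocompatibility complex (MHC) molecules or switch the MHC genes on, and they were followed in whole thymi of adult zebrafish with and without the transcription factor *foxn1*. Of 10 names, 9 were found by their symbol among the 32520 genes of the count files. The class I path was represented by *b2m*, *tap1*, *tap2a*, *tapbp.1* and *nlrc5*, and the class II path by *cd74a*, *cd74b*, *ciita* and *rfx5*. The name *ifi30* matched no identifier. An older-name entry of the RefSeq table assigns it to *ifi30a*, which is therefore given beside the 9 genes and is not counted among them. The *foxn1*-/- fish carried an internal deletion of *foxn1* and were compared with *foxn1*+/+ fish, all aged 3 months; the *ikzf1*:EGFP background is named in the methods for thymi used in RT-PCR and not for these libraries. Each of the 3 libraries per genotype was made from the pooled thymic RNA of 3 fish, so that the spread between libraries is a spread between pools.

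MHC class I molecules display peptides of cytosolic origin to CD8+ T cells. The peptides enter the endoplasmic reticulum through the TAP transporter and are fitted into the groove with the help of tapasin, and the class I heavy chain is held on the surface by beta-2 microglobulin. MHC class II molecules are assembled with the invariant chain CD74, which blocks the groove until proteases cut it away in endosomes, and then display peptides to CD4+ T cells. In mammals, CIITA is the master coactivator of class II genes and NLRC5 that of class I genes; both lack a DNA-binding domain of their own and are held at MHC promoters by a complex of RFX, NF-Y and CREB proteins. In the thymus, epithelial cells, dendritic cells, macrophages and B cells use these routes to present self peptides to developing T cells.

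Libraries held between 31989159 and 42198532 counts, and levels are given as CPM, counts scaled to library size with TMM factors and not corrected for gene length. The 9 genes had between 100 and 132594 counts per library, far above the 3 counts taken as the floor, which correspond to 0.0623 to 0.0874 CPM. The targeted gene *foxn1* (ENSDARG00000011879) was at 3.32, 3.47 and 1.76 CPM in *foxn1*-/- thymi, against 10.3, 9.96 and 9.31 CPM in *foxn1*+/+ thymi. Markers of thymocytes, which identify the tissue, summed to between 163 and 538 CPM in *foxn1*-/- thymi and between 7793 and 10109 CPM in *foxn1*+/+ thymi, with all 10 markers lower (median log2 fold change -4.41). Of the markers of cortical thymic epithelium, the gene listed as *PSMB11* had 0 counts in every *foxn1*-/- library and 1597 to 2509 counts in *foxn1*+/+ libraries, and *psmb11b* had at most 1 count in a *foxn1*-/- library. Of all 8 epithelial markers, 5 were lower and 2 higher (*dll4* and *CXCL12*, with log2 fold changes of 0.51 and 1.53), and their sums overlapped, at 564 to 908 CPM in *foxn1*-/- thymi and 611 to 921 CPM in *foxn1*+/+ thymi. The rise of *dll4* was lost with library size alone (adjusted p = 0.494, edgeR), with voom and treat, and without *foxn1*+/+ replicate 2. Contractile muscle genes summed to between 83313 and 116029 CPM in *foxn1*-/- thymi, against 5963 to 14210 CPM in *foxn1*+/+ thymi; the part of these shifts in the results was not tested. In whole tissue, fewer cells of a type and less RNA per cell cannot be told apart.

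All 9 genes were lower in *foxn1*-/- thymi (edgeR's quasi-likelihood test, Benjamini-Hochberg adjusted over all 23805 genes tested), 5 of 5 in the class I path and 4 of 4 in the class II path. Of all genes tested, 72.1% differed between genotypes, with 35.9% lower and 36.2% higher in *foxn1*-/- thymi. For all 9, every *foxn1*-/- library lay below every *foxn1*+/+ library, which was the case for 39.3% of all genes, while the genotypes did not overlap in either direction for 77.2%. The median log2 fold change was -1.46 over the class I path and -1.98 over the class II path, where all genes tested had a median of 0.02 and a middle 50% from -0.93 to 1.44.

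**Figure D1:**
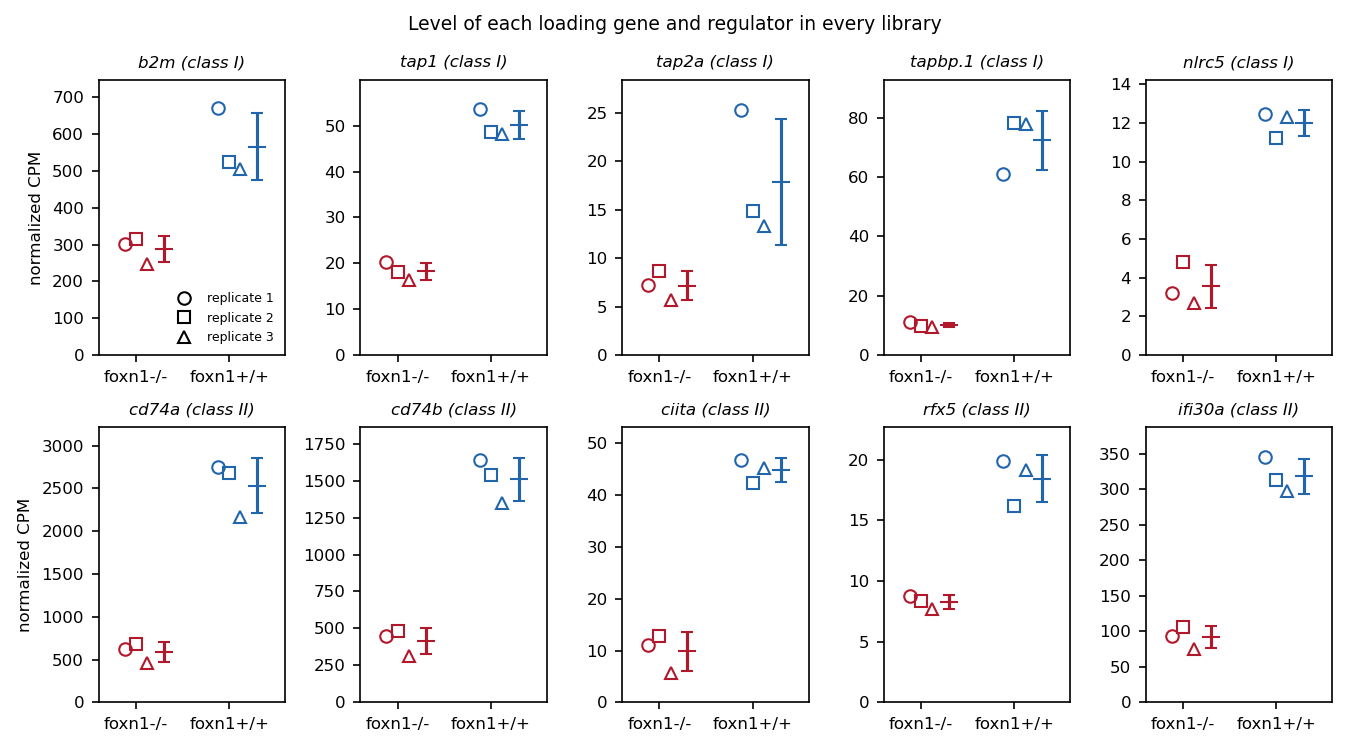
Normalized CPM (linear axes from 0) of the 5 class I and 4 class II genes and of *ifi30a* in each library, with *foxn1*-/- left of *foxn1*+/+; symbols are single libraries, and the bar to their right is the mean with its SD (n = 3). In every panel the 3 *foxn1*-/- libraries lie below the 3 *foxn1*+/+ libraries, most clearly for *tapbp.1* (9.49 to 11.0 against 61.0 to 78.1 CPM).

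In the class I path, *b2m* (ENSDARG00000053136) encodes beta-2 microglobulin, the light chain without which class I molecules do not reach the cell surface. It was at 301, 315 and 247 CPM in *foxn1*-/- thymi, against 670, 524 and 504 CPM in *foxn1*+/+ thymi. This was the smallest change of the 9 genes, with a level in *foxn1*-/- thymi of 50.9% of that in *foxn1*+/+ thymi (log2 fold change -0.98, standard error 0.162, adjusted p = 0.00137, edgeR). Its relative *b2ml* (ENSDARG00000015887), a second gene of the beta-2 microglobulin type, was at 538, 522 and 449 CPM in *foxn1*-/- thymi, against 604, 585 and 578 CPM in *foxn1*+/+ thymi. Although its genotypes did not overlap either, the difference missed the threshold (log2 fold change -0.23, standard error 0.118, adjusted p = 0.118, edgeR). Scaled by library size alone, which moves the median of all genes by -0.40 on the log2 scale, *b2ml* passed as lower (log2 fold change -0.64, adjusted p = 0.00168, edgeR). The count of *b2m* over that of *b2ml*, a ratio within each library that no scaling can move, was 0.572 ± 0.0289 in *foxn1*-/- thymi and 0.959 ± 0.130 in *foxn1*+/+ thymi (SD, n = 3 each).

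The subunits of the TAP transporter, which pumps peptides from the cytosol into the endoplasmic reticulum, fell together. For *tap1* (ENSDARG00000079766), levels were 20.2, 18.2 and 16.4 CPM in *foxn1*-/- thymi, against 53.6, 48.5 and 48.3 CPM in *foxn1*+/+ thymi (log2 fold change -1.46, standard error 0.117, adjusted p = 7.01e-05, edgeR). For *tap2a* (ENSDARG00000036787), they were 7.20, 8.64 and 5.67 CPM in *foxn1*-/- thymi, against 25.3, 14.8 and 13.4 CPM in *foxn1*+/+ thymi (log2 fold change -1.31, standard error 0.283, adjusted p = 0.00477, edgeR). One *foxn1*+/+ library, replicate 1, stood above the others for *tap2a*, and without it the log2 fold change was -1.01. The ratio of *tap1* to *tap2a* counts overlapped between genotypes, at 2.60 ± 0.433 in *foxn1*-/- thymi and 3.00 ± 0.781 in *foxn1*+/+ thymi (SD, n = 3 each). A further TAP2-type gene, *tap2t* (ENSDARG00000033446), fell to 17.3 ± 0.120 CPM in *foxn1*-/- thymi, against 29.3 ± 1.38 CPM in *foxn1*+/+ thymi (SD, n = 3 each; log2 fold change -0.76, adjusted p = 0.000401, edgeR).

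Tapasin tethers empty class I molecules to the TAP transporter and selects well-fitting peptides. Of the 9 genes, *tapbp.1* (ENSDARG00000079402), which encodes it, showed the largest change. It was at 11.0, 9.88 and 9.49 CPM in *foxn1*-/- thymi, against 61.0, 78.1 and 78.0 CPM in *foxn1*+/+ thymi, which is 7.14-fold lower (log2 fold change -2.83, standard error 0.143, adjusted p = 2.33e-05, edgeR). Only 5.73% of all genes tested had a fold change as low or lower. Its paralogue *tapbp.2* (ENSDARG00000045011), close by in the genome, fell to 9.93 ± 0.841 CPM in *foxn1*-/- thymi, against 55.6 ± 5.17 CPM in *foxn1*+/+ thymi (SD, n = 3 each; log2 fold change -2.48, adjusted p = 2.31e-05, edgeR). How reads shared by the 2 tapasin genes were counted is not given in the sources used here. The tapasin-like *tapbpl* (ENSDARG00000058351), a peptide editor that works outside the loading complex in mammals, was at 16.2 ± 3.94 CPM in *foxn1*-/- thymi and 35.7 ± 3.26 CPM in *foxn1*+/+ thymi (SD, n = 3 each; log2 fold change -1.14, adjusted p = 0.00118, edgeR).

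The class I coactivator *nlrc5* (ENSDARG00000024631) was at 3.21, 4.82 and 2.67 CPM in *foxn1*-/- thymi, against 12.4, 11.2 and 12.3 CPM in *foxn1*+/+ thymi (log2 fold change -1.75, standard error 0.231, adjusted p = 0.000481, edgeR). Mutant libraries lay well apart from each other, yet the highest of them was under all *foxn1*+/+ libraries. Relative to *nlrc5*, *b2m* counts were higher in *foxn1*-/- thymi, at 83.9 ± 16.0 counts per *nlrc5* count, against 47.2 ± 6.45 in *foxn1*+/+ thymi (SD, n = 3 each), without overlap.

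In the class II path, *cd74a* (ENSDARG00000009087) and *cd74b* (ENSDARG00000036628) encode forms of the invariant chain, which occupies the peptide groove and guides class II molecules to endosomes. Levels of *cd74a* were 618, 688 and 464 CPM in *foxn1*-/- thymi, against 2755, 2683 and 2162 CPM in *foxn1*+/+ thymi. This corresponds to a 4.29-fold lower level (log2 fold change -2.10, standard error 0.195, adjusted p = 0.000112, edgeR). Levels of *cd74b* were 451, 484 and 317 CPM in *foxn1*-/- thymi, against 1638, 1541 and 1351 CPM in *foxn1*+/+ thymi, or 3.62-fold lower (log2 fold change -1.85, standard error 0.192, adjusted p = 0.000168, edgeR). Set against each other within a library, there were 1.37, 1.42 and 1.46 *cd74a* counts per *cd74b* count in *foxn1*-/- libraries, against 1.68, 1.74 and 1.6 in *foxn1*+/+ libraries, without overlap (exact two-sided permutation test, p = 0.1, the smallest possible with 3 against 3).

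**Figure D2:**
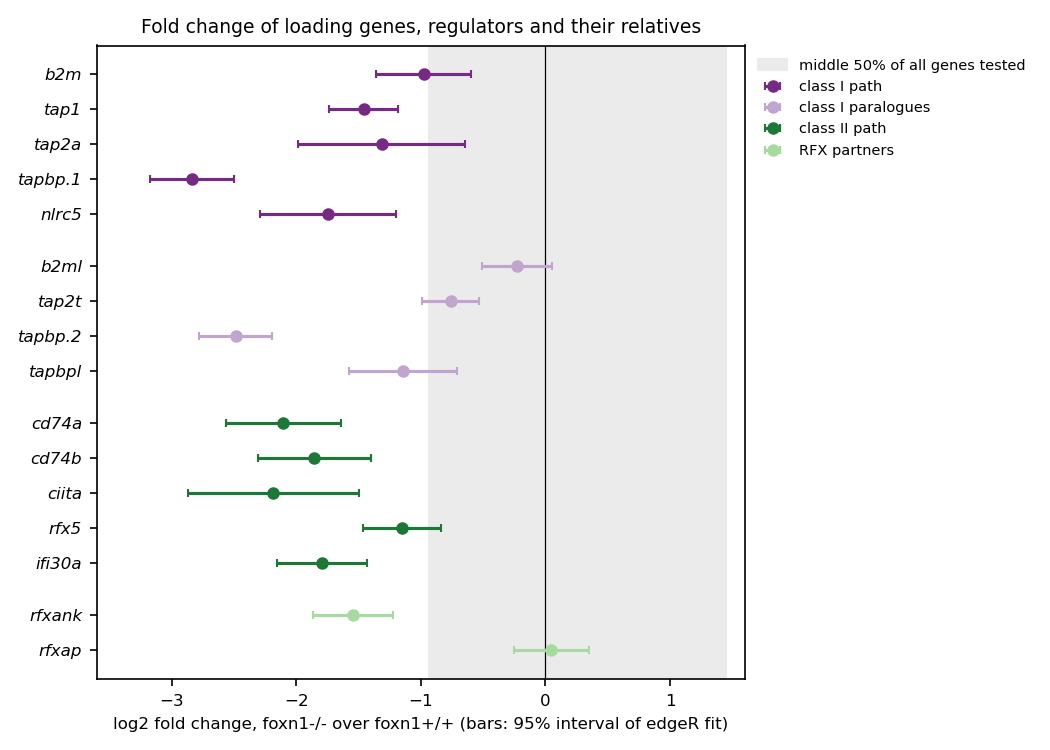
Log2 fold change of *foxn1*-/- over *foxn1*+/+ with its 95% interval from the edgeR fit (n = 3 each) for the class I and class II genes, their paralogues and the partners of *rfx5*; the grey band is the middle 50% of all genes tested. The points of all class I and class II genes lie below the lower edge of the band, with *b2m* (-0.98) next to it and *tapbp.1* (-2.83) farthest from it. Among these genes, the intervals of *b2m*, *tap2a* and *rfx5* reach into the band. The points of *tap2t* (-0.76), *b2ml* (-0.23) and *rfxap* (0.05) lie within it.

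Levels of *ciita* (ENSDARG00000090851), the class II coactivator, were 11.1, 12.8 and 5.64 CPM in *foxn1*-/- thymi, against 46.9, 42.4 and 45.2 CPM in *foxn1*+/+ thymi (log2 fold change -2.18, standard error 0.289, adjusted p = 0.000541, edgeR). The *foxn1*+/+ libraries were nearly alike, whereas *foxn1*-/- replicate 3 lay well below the other mutant libraries. Without that library the log2 fold change of *ciita* was -1.83. The number of *cd74a* counts per *ciita* count overlapped between genotypes, at 63.8 ± 15.9 in *foxn1*-/- thymi and 56.6 ± 7.98 in *foxn1*+/+ thymi (SD, n = 3 each), so that no difference between the falls of the coactivator and of *cd74a*, whose mammalian counterpart it activates, was detectable. By contrast, *ciita* counts per *nlrc5* count did not overlap, at 3.47, 2.66 and 2.11 in *foxn1*-/- libraries and 3.77, 3.78 and 3.68 in *foxn1*+/+ libraries.

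The RFX complex binds the X box that MHC class I and class II promoters share in mammals, through its DNA-binding subunit RFX5 and the partners RFXAP and RFXANK. Levels of *rfx5* (ENSDARG00000063258) were 8.80, 8.40 and 7.67 CPM in *foxn1*-/- thymi, against 19.9, 16.2 and 19.2 CPM in *foxn1*+/+ thymi (log2 fold change -1.15, standard error 0.132, adjusted p = 0.000259, edgeR). Of the partners, *rfxank* was called lower and *rfxap* was not. *rfxank* (ENSDARG00000016730) fell to 7.55 ± 1.0 CPM in *foxn1*-/- thymi, against 22.1 ± 1.29 CPM in *foxn1*+/+ thymi (SD, n = 3 each; log2 fold change -1.55, adjusted p = 9.63e-05, edgeR). *rfxap* (ENSDARG00000076891) was at 19.0 ± 1.5 CPM in *foxn1*-/- thymi and 18.4 ± 2.01 CPM in *foxn1*+/+ thymi (SD, n = 3 each; adjusted p = 0.756, edgeR), with a 95% interval of its log2 fold change from -0.25 to 0.35; with library size alone it passed as lower (log2 fold change -0.35, adjusted p = 0.0417, edgeR). Accordingly, the ratio of *rfx5* to *rfxap* counts was 0.440 ± 0.0646 in *foxn1*-/- thymi and 1.01 ± 0.165 in *foxn1*+/+ thymi (SD, n = 3 each).

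The gene held to be *ifi30*, *ifi30a* (ENSDARG00000056378), encodes in mammals the lysosomal thiol reductase GILT, which opens disulfide bonds of proteins before class II loading. It was at 93.5, 106 and 75.4 CPM in *foxn1*-/- thymi, against 345, 313 and 297 CPM in *foxn1*+/+ thymi (log2 fold change -1.80, standard error 0.153, adjusted p = 8.44e-05, edgeR). Its paralogue *ifi30b* (ENSDARG00000075629), named after its values were seen, went the other way, with 150, 92 and 201 counts in *foxn1*-/- libraries and 10, 37 and 5 counts in *foxn1*+/+ libraries (log2 fold change 3.22, adjusted p = 0.00567, edgeR). Without *foxn1*+/+ replicate 2 the log2 fold change was 4.49.

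Ratios of counts within a library were compared for 16 pairs, which were chosen with the fold changes known. In 12 pairs the genotypes did not overlap, and for each of these the exact two-sided permutation test gave p = 0.1, the smallest that 3 libraries against 3 allow (0.133 after Benjamini-Hochberg adjustment over the pairs). Taken singly, 77.2% of all genes tested did not overlap between genotypes, and the share among ratios of other genes was not computed. Between the paths, *cd74a* counts per *b2m* count were 2.05, 2.18 and 1.88 in *foxn1*-/- libraries and 4.11, 5.12 and 4.29 in *foxn1*+/+ libraries. Set against *ptprc*, the gene of the pan-leukocyte antigen CD45, which had a log2 fold change of -3.27, *cd74a* counts were higher in *foxn1*-/- thymi, at 12 ± 1.85 per *ptprc* count, against 5.26 ± 1.18 in *foxn1*+/+ thymi (SD, n = 3 each). For *b2m* this ratio was 5.96 ± 1.34 in *foxn1*-/- thymi and 1.17 ± 0.214 in *foxn1*+/+ thymi, and for *ciita* it was 0.191 ± 0.0212 in *foxn1*-/- thymi and 0.0921 ± 0.00825 in *foxn1*+/+ thymi (SD, n = 3 each). For *tapbp.1* it overlapped between genotypes (0.213 ± 0.0657 in *foxn1*-/- thymi, 0.150 ± 0.0311 in *foxn1*+/+ thymi; SD, n = 3 each). These ratios depend on the leukocyte gene chosen. The other pan-leukocyte genes had log2 fold changes of -3.84 (*CORO1A*), -3.80 (*IKZF1*) and -2.32 (*laptm5*). The fall of *laptm5* was close to those of *cd74a* (-2.10) and *ciita* (-2.18), and ratios to these other leukocyte genes were not compared.

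**Figure D3:**
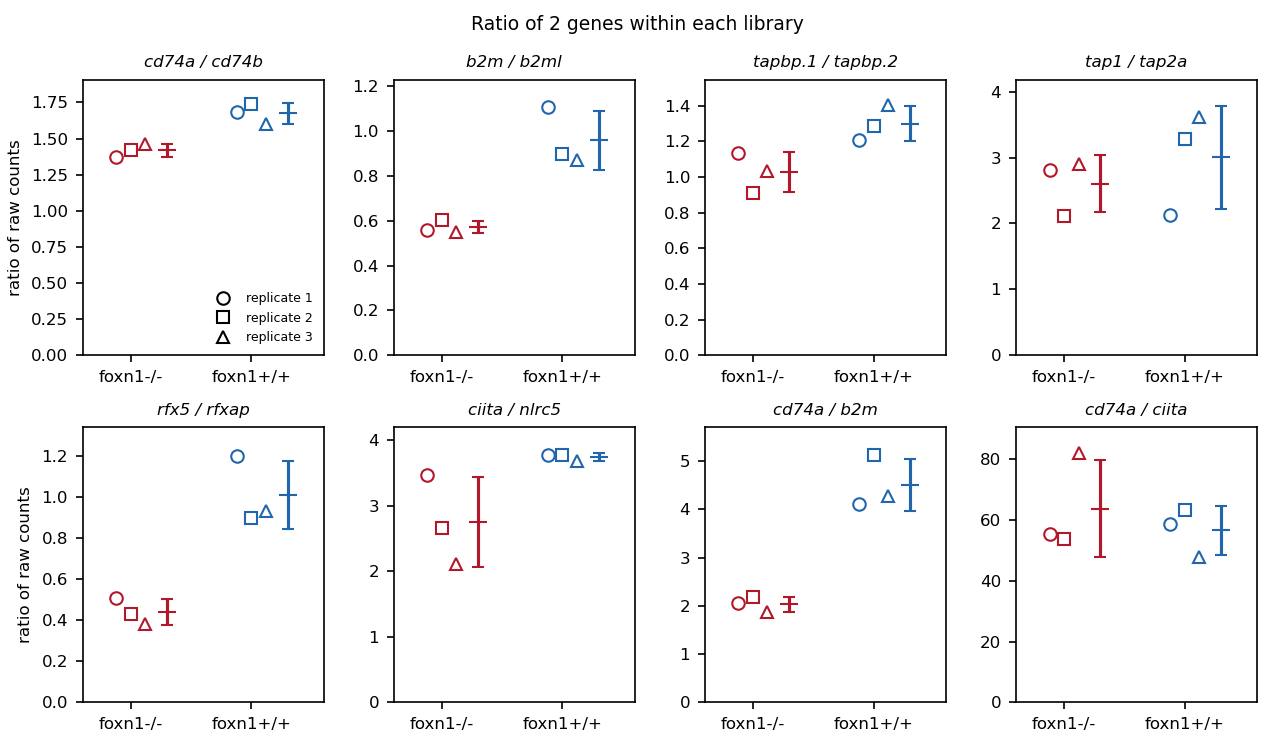
Ratio of raw counts of 2 genes within each library (linear axes from 0), with *foxn1*-/- left of *foxn1*+/+; symbols are single libraries, and the bar to their right is the mean with its SD (n = 3). Genotypes are apart for *b2m* over *b2ml*, *rfx5* over *rfxap* and *cd74a* over *b2m*, and overlap for *tap1* over *tap2a* and *cd74a* over *ciita*.

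The libraries of a genotype differed in a way that ran across the genes. All 9 were lowest in *foxn1*-/- replicate 3, which was the lowest mutant library for 30.8% of all genes tested. There the genes stood at 57.2% to 93.6% of their *foxn1*-/- mean, with *ciita* lowest. The same library had the lowest sum of thymocyte markers (163 CPM, against 536 and 538 CPM in the other mutant libraries), of dendritic cell markers (10.7 CPM, against 14.5 and 16.9 CPM) and of B cell markers (49.3 CPM, against 78.2 and 93.8 CPM). It was also lowest for the sums of macrophage (201 CPM), pan-leukocyte (164 CPM), thymic epithelium (564 CPM) and contractile muscle genes (83313 CPM). Among the marker lists, only the sum of the 2 neutrophil markers was highest there (447 CPM), and it was nearly all *MMP9* (445 CPM). The other neutrophil marker, *lyz*, was at 2.09 CPM there, against 1.95 and 3.23 CPM in *foxn1*-/- replicates 1 and 2. The part of these differences in the levels was not tested. Without *foxn1*-/- replicate 3 all 9 genes were still lower, with log2 fold changes between -2.71 for *tapbp.1* and -0.80 for *b2m*. Among *foxn1*+/+ libraries, 8 of the 9 genes were highest in replicate 1 and *tapbp.1* in replicate 2.

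**Figure D4:**
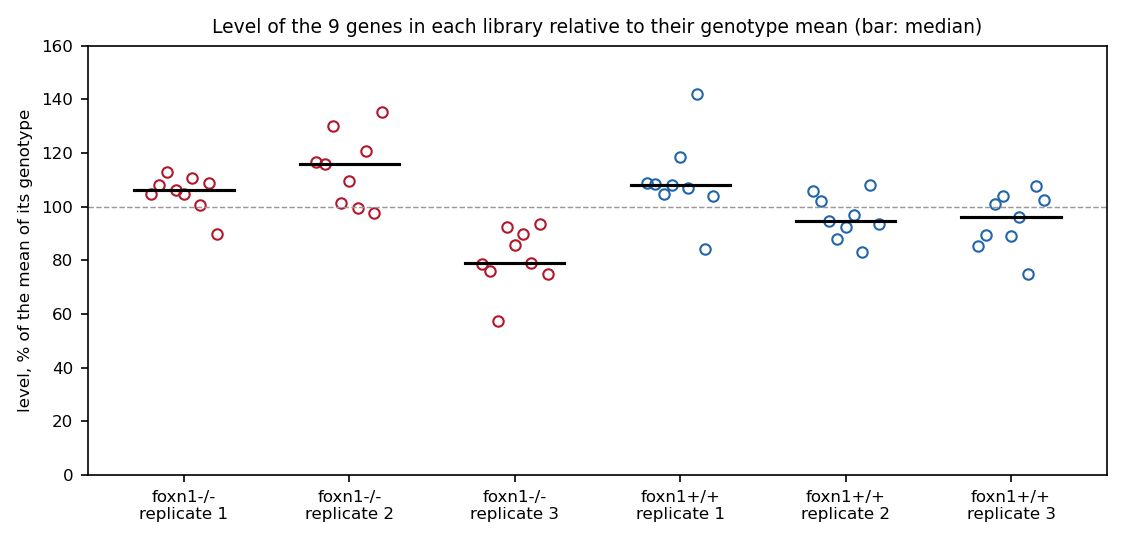
Level of each of the 9 genes in a library as a percentage of its mean over the 3 libraries of the same genotype (linear axis from 0); each point is a gene, and bars are medians. The genes of *foxn1*-/- replicate 3 all lie below 100% (median 79.1%).

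The other genes of the class I loading machinery followed only in part. Of 14 measured genes, 9 were lower, 1 was higher and 4 passed in neither direction, with a median log2 fold change of -0.62. The shares over all genes tested were 35.9% lower and 36.2% higher. With library size alone, 13 of the 14 were lower, *PDIA3* among them, and none higher. That scaling called 10800 of all 23805 genes tested lower and 6732 higher. The largest fall was that of *erap2* (ENSDARG00000098618), whose mammalian counterpart trims peptides to length in the endoplasmic reticulum. Its levels were 18.1 ± 2.46 CPM in *foxn1*-/- thymi and 123 ± 19.4 CPM in *foxn1*+/+ thymi (SD, n = 3 each; log2 fold change -2.77, adjusted p = 3.14e-05, edgeR). Both genes listed as *ERAP1* also fell, by 1.13 and 1.29 on the log2 scale. Chaperones and folding enzymes with clients beyond MHC molecules did not move as one. Of the calreticulin genes, *CALR* (ENSDARG00000076290) and *calr3b* fell by 0.58 and 0.59 on the log2 scale. The third, *calr3a*, passed in neither direction (log2 fold change -0.23, adjusted p = 0.0869, edgeR). *PDIA3*, the disulfide isomerase of the loading complex, was at 287 ± 19.3 CPM in *foxn1*-/- thymi and 331 ± 23.7 CPM in *foxn1*+/+ thymi (SD, n = 3 each; adjusted p = 0.133, edgeR). Calnexin (*CANX*, ENSDARG00000037488) rose to 476 ± 87.9 CPM in *foxn1*-/- thymi, against 285 ± 28.7 CPM in *foxn1*+/+ thymi (SD, n = 3 each; log2 fold change 0.74, adjusted p = 0.00566, edgeR), a call that was lost with library size alone (adjusted p = 0.0897, edgeR).

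Among 6 further genes of the class II route, 3 were lower and 2 higher, with a median log2 fold change of -0.38. The shares over all genes tested were 35.9% lower and 36.2% higher. Library size alone gave 4 lower and none higher, beside 10800 lower and 6732 higher of all 23805 genes tested. Cathepsin S is the protease that removes the last part of the invariant chain in mammalian antigen-presenting cells. Its gene *ctss2.1* (ENSDARG00000074656) fell to 11.2, 13.9 and 9.01 CPM in *foxn1*-/- thymi, against 65.8, 59.2 and 54.2 CPM in *foxn1*+/+ thymi (log2 fold change -2.39, standard error 0.179, adjusted p = 5.58e-05, edgeR). The related *ctss1* fell by 1.21 on the log2 scale. The call of *ctss2.2* (log2 fold change -0.68, adjusted p = 0.0312, edgeR) was lost with voom and treat and without *foxn1*-/- replicate 1 or 3 or *foxn1*+/+ replicate 1 or 2 (adjusted p between 0.0654 and 0.0990), which leaves 2 lower genes. Legumain (*LGMN*, ENSDARG00000039150), an endopeptidase that makes an early cut in the invariant chain, rose to 181 ± 29.7 CPM in *foxn1*-/- thymi, against 113 ± 17.6 CPM in *foxn1*+/+ thymi (SD, n = 3 each; log2 fold change 0.68, adjusted p = 0.00861, edgeR). The ubiquitin ligase *marchf1*, which removes class II molecules from the surface in mammals, rose as well, but at 0.791 ± 0.0328 CPM in *foxn1*-/- thymi and 0.327 ± 0.110 CPM in *foxn1*+/+ thymi (SD, n = 3 each). Neither rise passed the threshold with library size alone (adjusted p = 0.172 and 0.0524, edgeR).

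Genes of the RFX, NF-Y and CREB families, from which the partners of the coactivators come, were mostly lower. Of 13 such genes, 11 were lower and 1 higher, with a median log2 fold change of -1.34. Over all genes tested, 35.9% were lower and 36.2% higher. Library size alone gave 12 lower and none higher, beside 10800 lower and 6732 higher of all 23805 genes tested. The 13 include genes listed as *RFX1* and *RFX7*, which lie outside the complex at MHC promoters, and the 1 higher gene is among these. NF-Y, a trimer that binds the CCAAT motif of the Y box, was lower in every subunit measured. The 2 genes listed as *NFYA* fell by 2.73 (ENSDARG00000001621) and 1.34 on the log2 scale, and *NFYB* (ENSDARG00000039185) fell to 25.5 ± 2.1 CPM in *foxn1*-/- thymi, against 67.7 ± 5.61 CPM in *foxn1*+/+ thymi (SD, n = 3 each). The 2 CREB1 genes fell by 1.88 and 2.00 on the log2 scale. Outside the MHC complex, 1 of the genes listed as *RFX1* (ENSDARG00000005883) fell by 2.06. One of those listed as *RFX7* (ENSDARG00000077237) rose by 0.75 on the log2 scale, a call that was lost with library size alone (adjusted p = 0.0569, edgeR), whereas the other gene listed as *RFX7* (ENSDARG00000103691) fell by 1.18.

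**Figure D5:**
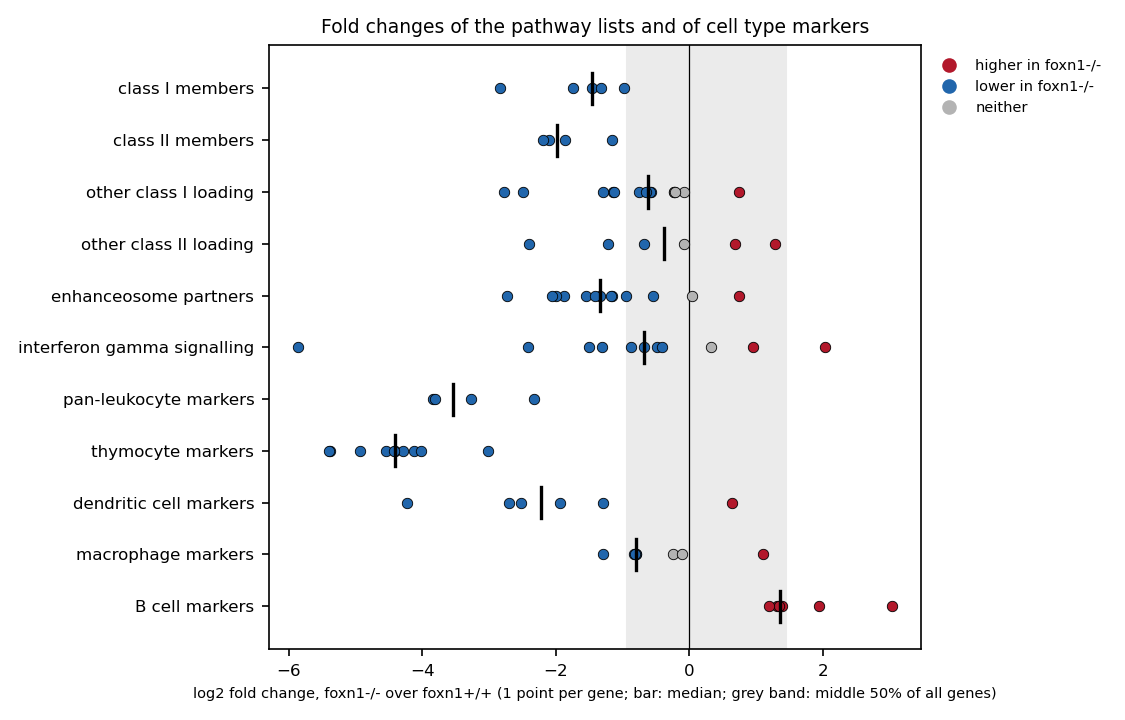
Log2 fold change of *foxn1*-/- over *foxn1*+/+ for each tested gene of the lists shown (1 point per gene, coloured by its edgeR call; black bars are medians; the grey band is the middle 50% of all genes tested). The lists of MHC class I and class II chains and of thymic epithelium, neutrophil and contractile muscle markers are not drawn. *ifng1r* is drawn with its *foxn1*+/+ level set at 3 counts per library. Class I and class II genes lie between thymocyte markers (median -4.41) and macrophage markers (median -0.80), and all B cell markers lie above 0.

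Interferon gamma switches on CIITA and NLRC5 in mammals, in part through IRF1. Of 12 genes of this route, 11 could be tested, of which 8 were lower and 2 higher, beside 35.9% lower and 36.2% higher over all genes tested. The median log2 fold change of the 11 genes was -0.67. Library size alone gave 8 lower and 1 higher, beside 10800 lower and 6732 higher of all 23805 genes tested. The largest fall was that of *irf1a* (ENSDARG00000043492), at 1.52, 1.97 and 1.42 CPM in *foxn1*-/- thymi, against 106, 91.0 and 87.2 CPM in *foxn1*+/+ thymi (log2 fold change -5.85, standard error 0.180, adjusted p = 1.54e-05, edgeR). Its paralogue *irf1b* (ENSDARG00000043249) fell by 2.41 on the log2 scale. The kinase gene *JAK1* (ENSDARG00000020625) fell to 172 ± 13.3 CPM in *foxn1*-/- thymi, against 316 ± 37.2 CPM in *foxn1*+/+ thymi (SD, n = 3 each; log2 fold change -0.88, adjusted p = 0.000747, edgeR). The ligand gene *ifng1* itself was at 0.110 ± 0.0232 CPM in *foxn1*-/- thymi and 0.193 ± 0.0543 CPM in *foxn1*+/+ thymi (SD, n = 3 each), close to the floor, and was not tested. The receptor genes went in both directions. The most abundant of those tested, *ifngr1l* (ENSDARG00000074488), fell to 20.0 ± 2.94 CPM in *foxn1*-/- thymi, against 49.3 ± 13.8 CPM in *foxn1*+/+ thymi (SD, n = 3 each; log2 fold change -1.30, adjusted p = 0.00139, edgeR). By contrast, *ifng1r* had 9, 14 and 10 counts in *foxn1*-/- libraries and 1 count in each *foxn1*+/+ library. *ifngr1* (ENSDARG00000074771) rose by 0.96 on the log2 scale, which was lost without *foxn1*+/+ replicate 1 or 3, without *foxn1*-/- replicate 1 and with library size alone (adjusted p between 0.0614 and 0.131, edgeR).

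The chains that this machinery loads were lower in part. Of the class II chains, *mhc2daa*, *mhc2dab* and *mhc2bl* were lower, with log2 fold changes of -2.09, -2.41 and -4.90, although the call of *mhc2dab* was lost without *foxn1*+/+ replicate 3 or *foxn1*-/- replicate 2 or 3 (adjusted p between 0.0535 and 0.0667, edgeR). Without *foxn1*-/- replicate 1, the log2 fold change of *mhc2dab* was -3.39 and that of *mhc2bl* -5.50. Of 10 class I heavy chains, 5 were lower and 2 higher, beside 35.9% lower and 36.2% higher over all genes tested. Among the 5, the call of *mhc1zaa* (log2 fold change -0.76) was lost without *foxn1*-/- replicate 3 (adjusted p = 0.0777, edgeR). Library size alone gave 6 lower and 2 higher, beside 10800 lower and 6732 higher of all 23805 genes tested. The most abundant heavy chain, *mhc1zba*, was at 1017 ± 109 CPM in *foxn1*-/- thymi and 1259 ± 82.6 CPM in *foxn1*+/+ thymi (SD, n = 3 each). It passed in neither direction (log2 fold change -0.31, adjusted p = 0.0747, edgeR), but as lower with library size alone (adjusted p = 0.00152, edgeR). The heavy chains ranged from *mhc1uba*, with 2, 2 and 0 counts in *foxn1*-/- libraries and 465, 953 and 1164 counts in *foxn1*+/+ libraries, to *mhc1zca*, at 88.5 ± 14.0 CPM in *foxn1*-/- thymi and 1.96 ± 1.43 CPM in *foxn1*+/+ thymi (SD, n = 3 each; log2 fold change 5.51, and 6.23 without *foxn1*+/+ replicate 3). Zebrafish carry different sets of class I genes on different haplotypes, and which ones these fish carried is not given in the sources used here, so that the part of the haplotype in the values of genes of this region was not tested.

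Marker genes of cell types that use these genes changed in different directions, beside 35.9% lower and 36.2% higher over all genes tested. All 4 pan-leukocyte genes were lower, with sums between 164 and 304 CPM in *foxn1*-/- thymi and between 2721 and 3133 CPM in *foxn1*+/+ thymi. Of 6 dendritic cell genes, 5 were lower and 1, *ZBTB46*, was higher with a log2 fold change of 0.64, which was lost with library size alone (sums of 10.7 to 16.9 CPM in *foxn1*-/- thymi, against 62.2 to 79.4 CPM in *foxn1*+/+ thymi). Most of the *foxn1*+/+ sums was *CCR7*, at 54.9, 39.8 and 41.1 CPM, against 2.36, 3.55 and 1.31 CPM in *foxn1*-/- libraries. The fall of the sums was thus mostly that of *CCR7* (log2 fold change -4.23). The other lower genes, *flt3*, *BATF3*, *IRF4* and *irf4b*, had log2 fold changes of -1.28, -2.52, -1.93 and -2.70. Of 8 macrophage genes, 5 were lower and 1, *csf1ra*, was higher with a log2 fold change of 1.11 (201 to 311 CPM in *foxn1*-/- thymi, against 471 to 569 CPM in *foxn1*+/+ thymi). B cell genes, by contrast, were higher in 6 of 6 (49.3 to 93.8 CPM in *foxn1*-/- thymi, against 16.6 to 19.1 CPM in *foxn1*+/+ thymi); *ighd* was at 0 in *foxn1*+/+ libraries and was not tested. The part of these cells in the levels of the 9 genes was not tested.

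Genes with the most similar pattern over the 6 libraries were sought by Pearson correlation of log2(CPM + 1) over the 9827 genes that averaged 10 CPM or more. Among the nearest to *b2m* were *ccdc115* and *RNPC3* (r = 0.999 and 0.996), and nearest to *cd74a* were si:ch211-196f2.6, *MYD88* and si:ch211-108p6.6 (r = 0.999 for each). These values describe 6 libraries that mostly differ by genotype, and 1510 and 2685 genes reached an r above 0.95 with *b2m* and *cd74a*.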

How the data were processed

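Bulk RNA-seq libraries of whole zebrafish thymi, 3 per genotype, were used, with genotype and replicate number taken from the sample labels. The authors trimmed reads with Trim Galore! 0.4.3.1, aligned them with HISAT2 2.1.0, counted them with featureCounts 1.6.1.0 and deposited raw counts per Ensembl gene, on build GRCz11 per the labels. The sources used here do not give the annotation release, the strand setting or how multiply aligned reads were handled. Gene symbols were available for 29201 of 32520 identifiers; names of relatives and gene order came from RefSeq (GRCz12tu), without coordinates.

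The 23805 genes that exceeded 5 counts in 3 or more libraries entered the comparison, which used TMM factors and the two-sided quasi-likelihood test of edgeR 4.0.16 (robust) in R 4.3.3, with p-values adjusted by the Benjamini-Hochberg method over all genes at a threshold of 0.05. Its code was also checked on simulated counts with known changes. CPM in the text are TMM-normalized, and intervals cover 95%. The methods of the study use voom and treat (limma 3.58.1), which was run as an alternative. Further alternatives were DESeq2 1.42.0, edgeR with DESeq2's size factors or scaled by library size alone, omission of the filter, a stricter filter (10 counts or more per library throughout), a block on the replicate number, and fits that each left out 1 library. Named genes were all members and, of each pathway list, the most abundant gene and the 2 largest rises and falls among called genes without overlap; *tapbpl*, *rfxap*, *rfxank*, *tap2t*, *PDIA3*, *ifi30b* and further list members were named after their values were seen. Some genes that the rule would name are not reported here. Members and lists were chosen with earlier results of these data known. The labels do not state whether fish of a genotype came from separate clutches.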

Additional observations from a re-analysis of the deposited data

How the results depend on the processing

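The number of genes that differed was 17165 in the fit described, of which 50.2% were higher in *foxn1*-/- thymi. With library size alone this share was 38.4%, and with at least 10 counts in every library 14432 of 19347 genes tested differed. All 9 genes were lower under each of the 13 alternatives run, with log2 fold changes from -3.24 to -2.71 for *tapbp.1* and from -1.38 to -0.80 for *b2m*. The highest adjusted p among these fits was 0.0236, for *tap2a* without *foxn1*-/- replicate 3. Replicate numbers are shared by both genotypes, and the labels do not say whether they mark pairs. Deviations of same-numbered libraries correlated at 0.14, -0.06 and -0.01, and those of differently numbered ones between -0.11 and 0.11. Such values from 3 libraries per genotype cannot exclude pairing. With the replicate number as a block 16308 genes and all 9 members differed. Depth set no limit for the 9 genes, but did for *ifng1* and *ifng1r*.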

Other observations

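In the RefSeq gene order of GRCz12tu, *tapbp.1*, *tapbp.2* and *tap2a* belong to 1 stretch of neighbouring genes that also holds class I heavy chains and catalytic subunits of the immunoproteasome, which cuts proteins into peptides for class I molecules. From *tapbp.1* to *brd2a* the stretch has 10 protein-coding genes, of which 9 were measured and all 9 were lower in *foxn1*-/- thymi (edgeR, 35.9% of all genes tested). Besides the genes already described, these were *psmb13a*, *psmb8a*, *psmb12* and *psmb9a*, with log2 fold changes of -2.24, -2.14, -1.87 and -2.80, and *brd2a*, with -1.92. The fall of *psmb9a* was thus close to that of *tapbp.1* (-2.83). Lower genes were not limited to the stretch: of the 9 genes shown on either side, 4 were lower and 5 higher. Directly before *tapbp.1*, *daxx* had a log2 fold change of -2.22, and *kifc1* and *znf384a* beyond it -3.61 and -1.17, while *zbtb22b* (0.98) and *flot1a* (0.99) were higher. After *brd2a*, *hsd17b8*, *col11a2* and *sdha* were higher (1.01, 2.45 and 0.71) and *rxrba* was lower (-1.34). The stretch was delimited after its values were seen, and its genes share libraries and may share haplotypes.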
